A study of Mus musculus with 14 samples.

Results

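The comparison described here is loss of Dnmt1 in multipotent progenitors (MPPs), taken as the 2 knockout and 2 control MPP arrays among the 14 arrays of the study. Arrays entered it by their labelled population and genotype, and the difference was read across the 8608 genes that passed a filter on low signal. All mice were of the Dnmt1 fl/fl Mx-Cre strain on a C57BL/6 background and 8 to 12 weeks old, so the controls also carried floxed Dnmt1 alleles. Knockout mice had the Mx-Cre transgene, whose promoter responds to interferon and is active in many tissues besides blood, and control mice lacked it. An interferon inducer, poly(I)-poly(C), was injected 7 times at 25 ug/kg on alternate days in mice of either genotype, and marrow was collected 4 days after the last dose. Each array held amplified RNA from a pool of 4 to 6 mice of 1 genotype, so replicates are pools and not single animals. MPPs were sorted as lineage-negative, c-Kit+, Sca-1+ and CD34+ cells. Control replicate 1 and knockout replicate 1 came from littermates, as did the replicates numbered 2. Long-term hematopoietic stem cells (LT-HSCs, CD34-, 2 arrays per genotype) and myeloid progenitors (Sca-1-, 3 per genotype) from the same design serve only for comparison.

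Dnmt1 is the maintenance DNA methyltransferase: it copies the methylation of CpG sites, a cytosine followed by a guanine, onto the new strand after replication. Genes used in germ cells are a known class that somatic cells keep silent through methylated promoters, and several of them become transcribed when Dnmt1 is lost. MPPs divide often, have little capacity for lasting self-renewal and give rise to the lymphoid, myeloid and erythroid lineages.

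The promoters of the 6 genes that passed the test in MPPs are shown because their CpG content, the target of Dnmt1, differs widely. Each sequence is the 250 bases before the annotated start in RefSeq, build GRCm38.p6, written 5′ to 3′ on the gene's strand with CpG sites in capitals. The windows are chr11:121145893-121146142 (plus strand) for Tex19.1, chr11:121118678-121118927 (minus) for Tex19.2, chrX:37754358-37754607 (plus) for Rhox5, chrX:139333433-139333682 (plus) for Trap1a, chr8:94172368-94172617 (plus) for Mt2 and chr2:27886175-27886424 (plus) for Col5a1.
Tex19.1: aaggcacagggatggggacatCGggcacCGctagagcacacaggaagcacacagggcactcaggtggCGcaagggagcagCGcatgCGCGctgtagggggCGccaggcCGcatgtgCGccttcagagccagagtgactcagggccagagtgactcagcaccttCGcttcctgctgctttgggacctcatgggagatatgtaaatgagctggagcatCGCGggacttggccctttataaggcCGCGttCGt
Tex19.2: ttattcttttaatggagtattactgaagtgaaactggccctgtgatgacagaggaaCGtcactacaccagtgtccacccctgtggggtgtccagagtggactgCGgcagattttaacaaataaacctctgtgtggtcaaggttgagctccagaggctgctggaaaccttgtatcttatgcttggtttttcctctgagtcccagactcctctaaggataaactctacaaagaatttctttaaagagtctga
Rhox5: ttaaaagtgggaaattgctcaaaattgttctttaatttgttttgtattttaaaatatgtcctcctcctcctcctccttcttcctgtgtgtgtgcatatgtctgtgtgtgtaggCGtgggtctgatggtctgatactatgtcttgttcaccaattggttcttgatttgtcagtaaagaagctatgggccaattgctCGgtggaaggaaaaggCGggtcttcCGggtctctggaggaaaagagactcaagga
Trap1a: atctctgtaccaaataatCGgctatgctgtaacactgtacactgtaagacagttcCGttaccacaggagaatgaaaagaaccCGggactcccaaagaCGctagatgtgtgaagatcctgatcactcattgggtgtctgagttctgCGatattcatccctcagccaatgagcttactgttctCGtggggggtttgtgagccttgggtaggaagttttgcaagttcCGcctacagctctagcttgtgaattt
Mt2: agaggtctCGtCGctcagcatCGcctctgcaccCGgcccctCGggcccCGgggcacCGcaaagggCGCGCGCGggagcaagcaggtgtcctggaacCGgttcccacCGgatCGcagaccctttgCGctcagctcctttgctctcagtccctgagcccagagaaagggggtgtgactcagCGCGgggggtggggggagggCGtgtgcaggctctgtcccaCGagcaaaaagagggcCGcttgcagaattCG
Col5a1: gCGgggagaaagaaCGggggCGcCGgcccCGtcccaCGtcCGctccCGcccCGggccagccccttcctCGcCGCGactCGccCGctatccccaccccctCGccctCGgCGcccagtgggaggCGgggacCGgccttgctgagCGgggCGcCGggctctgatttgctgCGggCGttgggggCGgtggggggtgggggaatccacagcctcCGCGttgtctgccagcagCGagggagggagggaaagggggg

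With the 50 bases after the start included, these windows held 16 CpG sites in Tex19.1, 2 in Tex19.2, 5 in Rhox5, 8 in Trap1a, 24 in Mt2 and 34 in Col5a1. Over 9085 windows of 7034 genes tested, the median was 20 and the quartiles were 11 and 29. The 4 germline genes thus lay below the median, 3 of them below the lower quartile, while Mt2 and Col5a1 lay above it. The E-box CACGTG, searched on both strands, occurs in 10.1% of these windows and GCGGGAA, an E2F-type motif, in 8.08%. Neither string lies in the windows of the 6 genes. Among the 18 of the 20 highest-ranked genes that have a window, CACGTG was found in Mtm1 and Ipp, and GCGGGAA in Septin8 and Ipp. Methylation was not measured in these files.

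Values are linear array intensities. A difference is the knockout mean less the control mean of quantile normalized log2(intensity + 16), a scale that understates the change of dim genes. The median intensity of an MPP array was 46.1 to 48.2, and 31.1% to 35.5% of its values lay below 16. Over all genes tested the median difference was -0.002. Precision is limited by how few arrays there are, and a gene's standard error (SE) had a median of 0.35. The ratio of 3′ to 5′ control probe sets for Gapdh was 2.86 and 2.44 on control and 2.66 and 2.53 on knockout arrays.

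The arrays of pair 1 stood apart in immediate early genes, which respond within minutes to stimulation, and control array 1 most of all. Fos, a transcription factor of this response, read 2192 and 22.4 in controls and 517 and 10.3 in knockouts, and its partner Jun read 2300 and 81.7 against 1068 and 56.6; both were singled out after their values were seen. The summed intensity of the immediate early and heat shock list was 28138 and 13110 in controls and 17568 and 14479 in knockouts. No member passed. The median over 19 tested members was -0.22, with -0.87 in pair 1 and 0.05 in pair 2, and it ran from -1.51 without control replicate 2 to 0.49 without control replicate 1. The part of this in other differences was not tested.

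Dnmt1 (Entrez Gene 13433) had intensities of 1518 and 1596 on the control MPP arrays and 1141 and 745 on the knockout arrays. Both knockout arrays were below both controls, as they were for 1224 of the 8608 genes tested (14.2%). The difference was -0.76 ± 0.26 (SE, n = 2 per genotype; limma, adjusted p = 1.0, unadjusted p = 0.0118), and it was -0.41 in littermate pair 1 and -1.11 in pair 2. A probe set that may also bind other transcripts read 1228 and 1415 on control and 750 and 501 on knockout arrays. The labels do not say which exons are deleted, so neither probe set shows how much functional transcript was left.

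In knockout MPPs 6 genes rose and 0 fell at an adjusted p below 0.05 (limma with Benjamini-Hochberg adjustment), which are 0.0697% and 0.0% of the 8608 genes. Of the 6, 4 are germline genes, Tex19.1, Tex19.2, Rhox5 and Trap1a. The others are Mt2, a metallothionein that binds zinc and copper, and Col5a1, a chain of type V collagen. At an unadjusted p below 0.05, 122 genes were higher (1.42%) and 107 lower (1.24%). With the 7 littermate pairs of the study as blocks, 12 genes rose (0.139%), the 6 among them, and 1 fell (0.0116%). Which of the 6 pass depends on single arrays: without MPP control replicate 1 or without control replicate 2 none of them passed, without knockout replicate 1 Tex19.1 and Trap1a passed, and without knockout replicate 2 none did (limma, adjusted p 0.00936 to 0.762). Their differences stayed between 2.30 and 5.88 in these fits.

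Tex19.1, which is expressed in germ cells and placenta and restrains transposable elements there, had intensities of 4.40 and 3.73 on control and 258 and 1015 on knockout arrays. It was near the floor of the array in controls and bright in both knockouts. The difference was 4.73 ± 0.61 (adjusted p = 0.0122), 3.84 in pair 1 and 5.63 in pair 2.

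Its paralog and neighbour on the chromosome, Tex19.2, read 1.64 and 1.95 on control and 120 and 420 on knockout arrays. As for Tex19.1, the knockout of pair 2 was the brighter one. The difference was 3.80 ± 0.62 (adjusted p = 0.0469), 3.00 in pair 1 and 4.60 in pair 2.

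Trap1a, an X-linked gene of germ cells and trophoblast that was first known as the tumour antigen P1A, read 5.46 and 3.07 on control and 187 and 1201 on knockout arrays. Of the 6 genes it differed most between the pairs, with 3.36 in pair 1 and 5.91 in pair 2. The difference was 4.63 ± 0.76 (adjusted p = 0.0469).

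Rhox5, an X-linked homeobox gene of the testis and placenta, read 7.39 and 1.77 on control and 329 and 338 on knockout arrays. Its knockout values were nearly equal, and so were the differences of 4.02 in pair 1 and 4.33 in pair 2. The difference was 4.17 ± 0.54 (adjusted p = 0.0122).

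Mt2 differed from these in being detected in controls: 39.5 and 48.3 on control and 335 and 263 on knockout arrays. The difference was 2.46 ± 0.37 (adjusted p = 0.0354), 2.75 in pair 1 and 2.17 in pair 2. Mt1, the other metallothionein of the same cluster, read 49.6 and 302 on control and 214 and 567 on knockout arrays. It was higher in both pairs by 1.89 and 0.88, but its controls differed widely and the difference of 1.39 ± 0.60 did not pass (adjusted p = 1.0).

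Col5a1 read 11.0 and 18.2 on control and 383 and 633 on knockout arrays. The difference was 4.14 ± 0.66 (adjusted p = 0.0469), 4.06 in pair 1 and 4.23 in pair 2. Its probe sets disagree in size. Of the others, one read 2.92 and 10.1 against 49.1 and 113, and the last read 27.0 and 7.08 against 17.0 and 51.4, where the groups overlap.

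**Figure D1:**
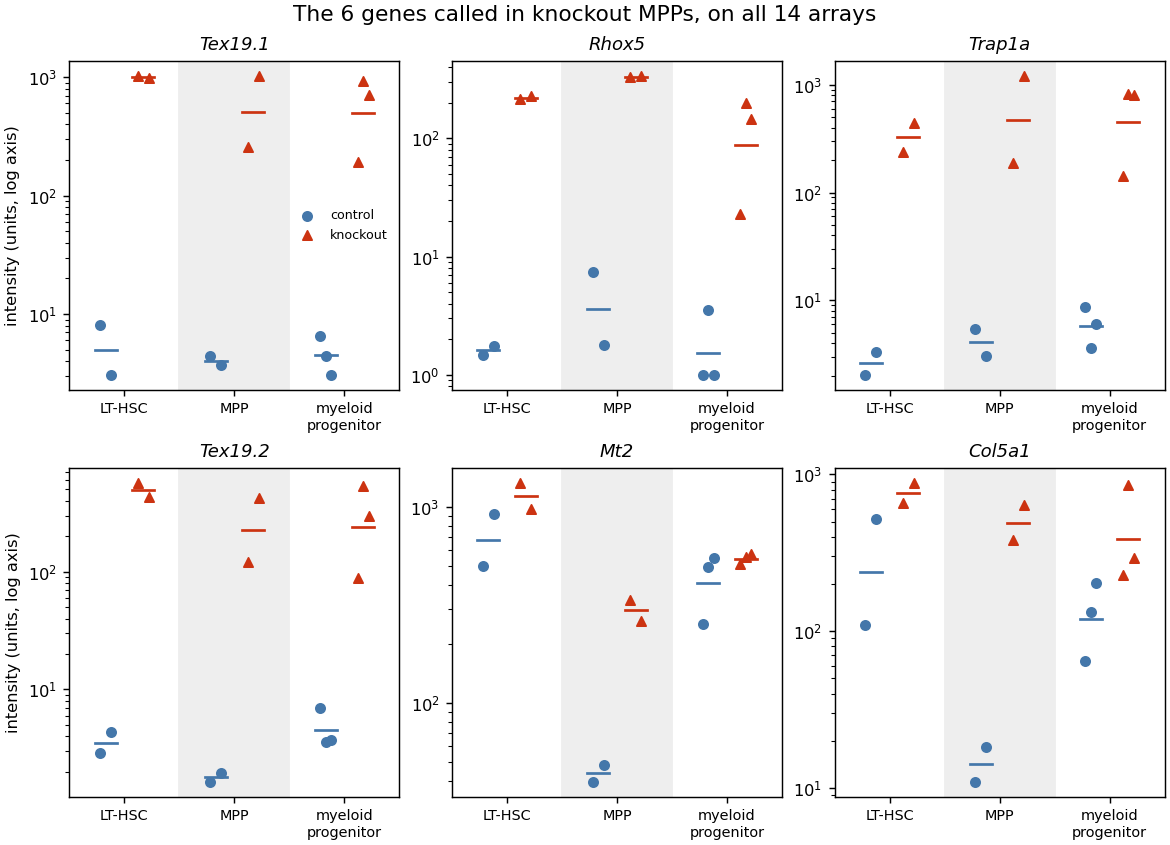
Intensity in units (log axis) of the 6 genes called in knockout MPPs on all 14 arrays, by sorted population; circles are control arrays, triangles are knockout arrays, bars are geometric means, and MPPs are shaded. Tex19.1, Rhox5, Trap1a and Tex19.2 are below 16 on all 7 control arrays, whereas Mt2 and Col5a1 are lowest on the control arrays of MPPs and brighter in the other populations.

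The control arrays of the other populations separate these genes further. Tex19.1, Tex19.2, Rhox5 and Trap1a were below 16 on all 7 control arrays of the study, as was Dazl among the 20 highest-ranked genes. That is 5 of 20, beside 38 of the 8608 genes tested (0.441%). Mt2 read 499 and 914 in control LT-HSCs and 251 to 546 in control myeloid progenitors, and Col5a1 read 109 and 519 and then 64.3 to 204. For both genes, the MPP controls were the lowest of the 7 control arrays. The same was true of 10 of the 20 highest-ranked genes, Tex19.2, Noct, Car1, Ces2g, Epor, Ermap, Septin8 and Abcb4 being the others, beside 360 of the 8608 (4.18%). The 5 genes below 16 were above the cutoff of the low-signal filter on 0 control arrays, so they entered only through knockout arrays. The ranking used the MPP control arrays. Both shares thus follow in part from the filter or the ranking and are a description only.

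Pairing the littermates added 6 genes that rose. Mnd1, a factor of meiotic recombination, was already bright in controls at 126 and 236 and read 936 and 1850 in knockouts. Its difference was 2.80 ± 0.49, and 2.74 and 2.85 in the pairs (adjusted p = 0.0854; with pairs as blocks 0.0165). Noct, the circadian phosphatase nocturnin, read 68.5 and 104 in controls and 375 and 914 in knockouts, a difference of 2.60 (adjusted p = 0.132; 0.0321 with blocks). Clec11a, a secreted lectin that acts as a growth factor on marrow cells, read 4.40 and 38.1 in controls and 188 and 465 in knockouts. The difference was 3.30 ± 0.85 (adjusted p = 0.707; 0.0321 with blocks).

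The other 3 that rose with blocks were Car1 and Klf1, described with the erythroid genes, and the gene model Gm9222. The last read 51.3 and 55.8 in controls and 415 and 534 in knockouts through a probe set that may bind other transcripts. Its difference was 2.85 (adjusted p = 0.228; 0.0407 with blocks).

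**Figure D2:**
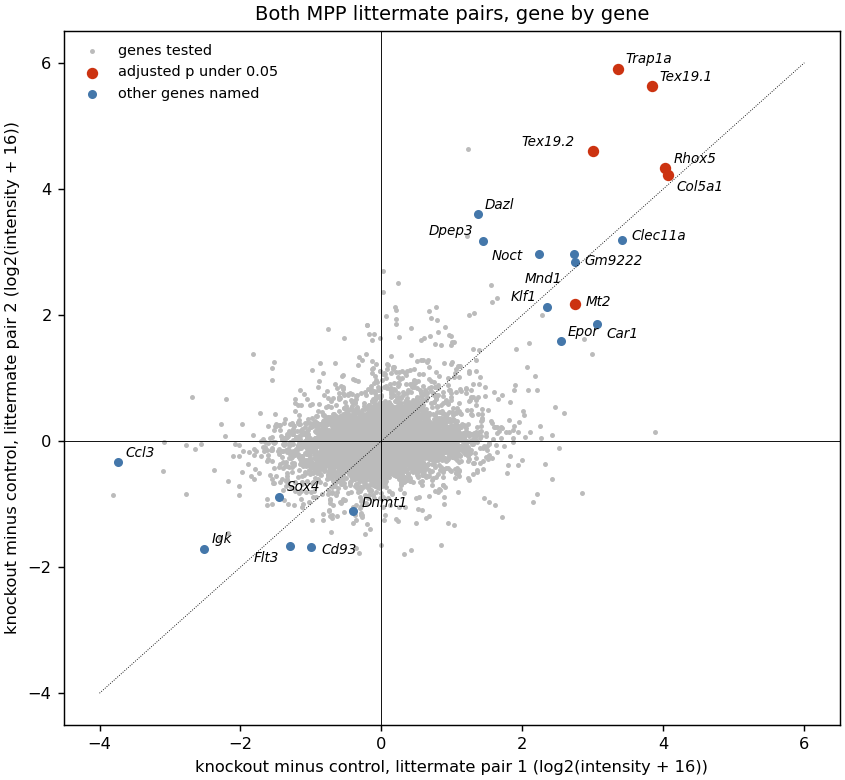
Knockout minus control, in log2(intensity + 16), in littermate pair 1 (horizontal) and pair 2 (vertical) for all genes tested; red marks the 6 genes with an adjusted p below 0.05 and blue other named genes, and the dotted line is equality. Trap1a, Tex19.1 and Tex19.2 lie above the line, Rhox5 and Col5a1 lie near it, and Car1 and Epor lie below it.

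Beyond the called genes, the germline and early embryo list had 45 members, of which 35 were on the array and 22 passed the filter. Of these 22, 19 were above the filter's cutoff on fewer than 2 control arrays, so most could pass only where knockouts were high. Without a block 4 rose, and 5 did with it, Mnd1 being the addition. Of the 22, 14 were higher in both pairs, beside 27.8% of all genes tested. The 2 that were lower in both pairs, beside 28.8%, were Ddx4 (-0.58) and Rhox6 (-0.50). Over all 35 the median difference was 0.30, against -0.002 for all genes tested. It was larger in pair 2 than in pair 1 over the tested members, with medians of 1.08 and 0.25, and the median of the tested members ran from 0.16 without knockout replicate 2 to 1.26 without knockout replicate 1. Dnmt1 itself was also lower by more in pair 2, but 2 pairs do not allow a relation to be tested.

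Dazl, an RNA-binding protein of germ cells, read 6.58 and 1.39 in controls and 39.5 and 193 in knockouts. Its difference was 2.48 ± 0.63 (adjusted p = 0.676). Dpep3, a dipeptidase of the testis, read 28.9 and 9.30 in controls and 92.2 and 221 in knockouts, a difference of 2.31 ± 0.52 (adjusted p = 0.374). Rpl39l, a ribosomal protein paralog used in spermatogenesis and singled out after its values were seen, read 5.94 and 6.34 in controls and 34.1 and 572 in knockouts. All of these were higher in both pairs, with the brighter knockout in pair 2.

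Ipp, a gene first described through transcripts that start in an intracisternal A particle, an endogenous retrovirus, read 82.7 and 124 in controls and 267 and 746 in knockouts. The difference was 2.01 ± 0.48 (adjusted p = 0.554). Imprinted genes, whose parental copies differ in methylation, did not pass: 0 of 14 tested members rose or fell, and 8 were higher in both pairs, beside 27.8% of all genes tested. Of the 14, 4 were above the cutoff on fewer than 2 control arrays. Over all 26 imprinted genes on the array the median difference was 0.10, and over the tested members it was 0.30, running from 0.036 without knockout replicate 1 to 0.54 without control replicate 1. Cdkn1c, a cell cycle inhibitor that was above the cutoff on 0 control arrays, was the single member with an unadjusted p below 0.05. It read 15.7 and 3.44 in controls and 30.1 and 17.5 in knockouts. Grb10, an adaptor of growth factor receptors, read 266 and 299 in controls and 343 and 664 in knockouts (0.76 ± 0.38; adjusted p = 1.0).

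Several erythroid genes were higher in knockout MPPs, and 2 of them passed with the block. Of 22 listed markers 15 were tested. None of them passed without the block, 7 were higher at an unadjusted p below 0.05, beside 1.42% of all genes, and 12 were higher in both pairs, beside 27.8%. The median difference was 0.74, and it was 0.76 to 1.05 with any 1 of the MPP arrays left out. With pairs as blocks Klf1 and Car1 rose. The summed intensity of the 17 markers on the array was 5207 and 3411 in controls and 6692 and 6724 in knockouts.

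Klf1, a transcription factor that drives globin and other erythroid genes, read 13.8 and 69.4 in controls and 114 and 338 in knockouts. Each knockout exceeded its littermate by about the same amount, 2.35 in pair 1 and 2.13 in pair 2. The difference was 2.24 ± 0.64 (adjusted p = 1.0; 0.0283 with blocks).

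Car1, a carbonic anhydrase of red cell precursors, read 41.1 and 146 in controls and 436 and 565 in knockouts. The difference was 2.46 ± 0.51 (adjusted p = 0.25; 0.0188 with blocks), 3.06 in pair 1 and 1.86 in pair 2. Ermap, an erythroid membrane protein, read 69.0 and 176 in controls and 657 and 478 in knockouts, a difference of 2.19 ± 0.49 (adjusted p = 0.374; 0.145 with blocks).

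Epor, the receptor for erythropoietin, read 31.0 and 35.4 in controls and 232 and 133 in knockouts. The difference was 2.06 ± 0.46 (adjusted p = 0.374; 0.171 with blocks). Gata1, the erythroid and megakaryocytic transcription factor, was also singled out after its values were seen and read 73.0 and 94.7 in controls and 190 and 406 in knockouts. Its difference was 1.62 ± 0.52 (adjusted p = 1.0).

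Globin transcripts of mature red cells did not follow these genes. Hba-a2 read 3605 and 2537 in controls and 3068 and 2422 in knockouts, and Hbb-b2 read 1858 and 1021 against 2000 and 1468. The groups overlap for both genes, which were chosen after their values were seen. In bulk sorted samples, more cells of a kind and more RNA per cell cannot be told apart.

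**Figure D3:**
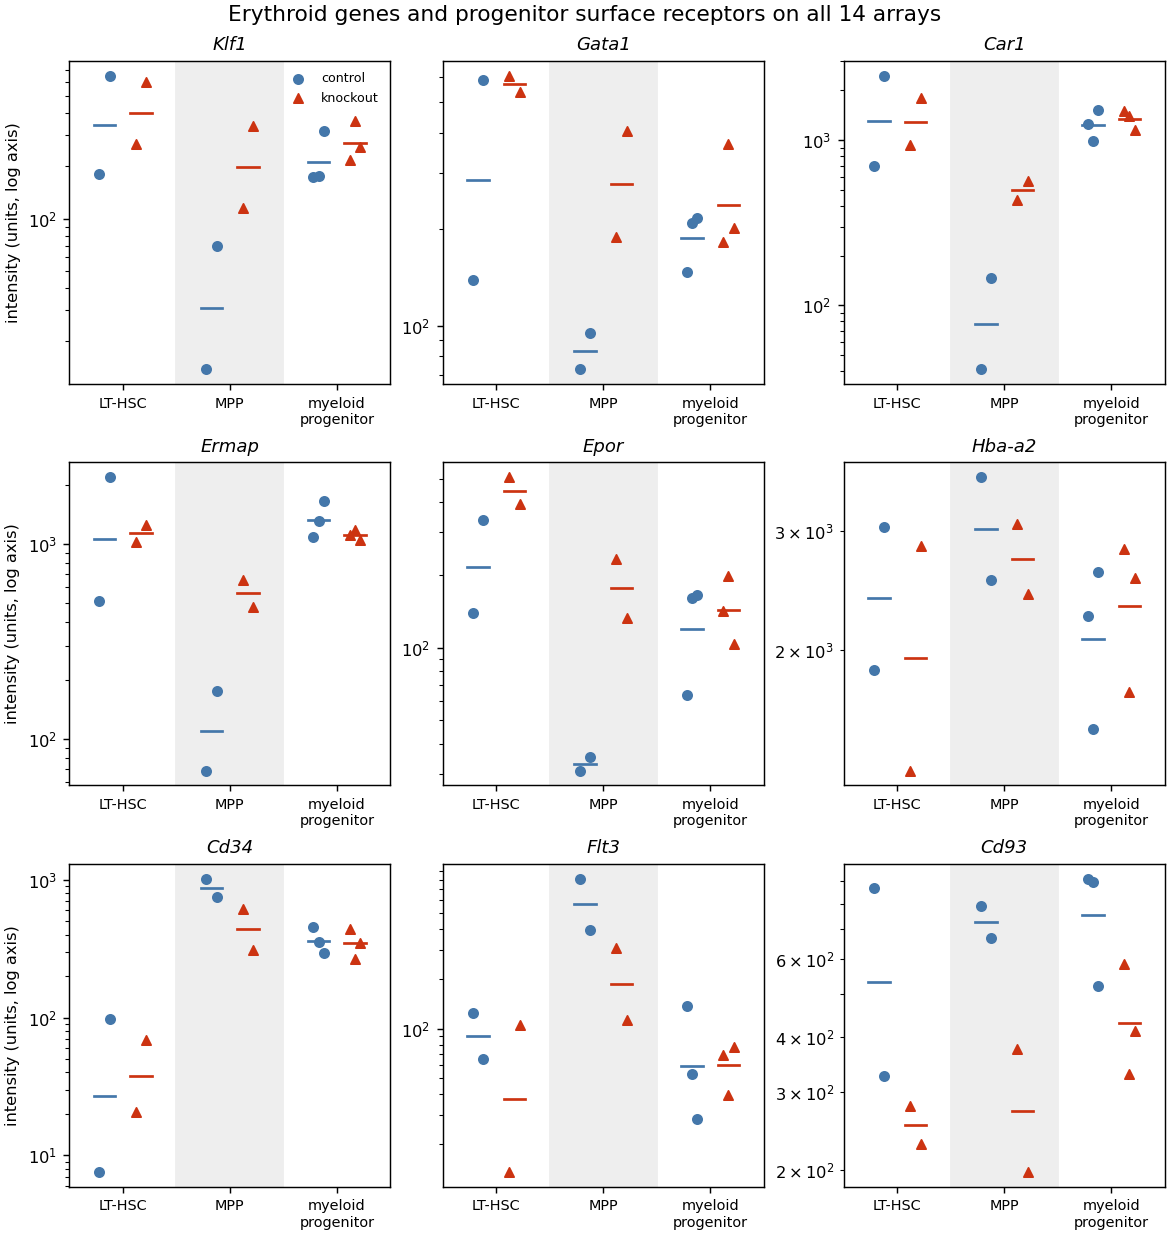
Intensity in units (log axis) of 6 erythroid genes and 3 progenitor surface receptors on all 14 arrays; circles are control arrays, triangles are knockout arrays, bars are geometric means, and MPPs are shaded. For Car1, Ermap and Epor the 2 MPP controls are the lowest control arrays and both knockouts are higher, and Hba-a2 overlaps. Cd34, Flt3 and Cd93 are lower on both knockout MPP arrays. Of all genes tested, 10.8% have both knockout MPP arrays above both controls and 14.2% have both below.

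Markers of mast cells, basophils and eosinophils had a median difference of 0.83 over 13 tested members, which ran from 0.10 without knockout replicate 2 to 0.97 without control replicate 2. None passed, 8 were higher in both pairs, beside 27.8% of all genes tested, and 1 was lower, beside 28.8%. The one that was lower, Hnmt, the enzyme that inactivates histamine by methylation, read 136 and 80.0 in controls and 35.3 and 60.3 in knockouts, a difference of -0.95 ± 0.38 (adjusted p = 1.0). Hdc, the enzyme that makes histamine, read 16.8 and 206 in controls and 111 and 428 in knockouts, so that the groups overlap. Cpa3, the mast cell carboxypeptidase, read 204 and 188 against 344 and 341, a difference of 0.80 ± 0.41 (adjusted p = 1.0). Cma1, a mast cell chymase, was high on knockout array 1 alone, at 229 beside 34.1, 14.4 and 17.2 on the others.

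Surface markers of early hematopoietic cells were mostly lower in knockout MPPs, and none passed the test. Of 11 listed markers 8 had a probe set with 1 gene symbol, and 6 of these were lower in both pairs, beside 28.8% of all genes tested. Only Kit and Cd34 among the 8 belong to the sort. Ly6a, which encodes Sca-1, is among the 3 without a probe set of 1 symbol and was not examined. Cd34 read 1021 and 748 in controls and 615 and 310 in knockouts, a difference of -0.96 ± 0.60 (adjusted p = 1.0). In LT-HSCs, sorted as CD34-, it read 7.55 to 96.8, so both knockout MPP arrays were above them. Kit, the receptor for stem cell factor, read 883 and 449 in controls and 524 and 295 in knockouts, where the groups overlap.

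Flt3, the receptor that marks progenitors with lymphoid potential, read 814 and 399 in controls and 308 and 112 in knockouts. The difference was -1.48 ± 0.71 (adjusted p = 1.0), -1.30 in pair 1 and -1.66 in pair 2. Cd93, a receptor of early progenitors, read 792 and 668 in controls and 374 and 198 in knockouts, a difference of -1.34 ± 0.48 (adjusted p = 1.0), and its other probe set was lower as well. Slamf1, a receptor of stem cells, went the other way: 36.5 and 22.3 in controls and 103 and 55.7 in knockouts. Its difference was 1.10 ± 0.53 (adjusted p = 1.0). Procr read 749 and 251 against 407 and 94.5, with overlapping groups.

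Over 30 tested genes of stem and early progenitor cells, 16 were lower in both pairs and 4 higher, with a median of -0.22 that ran from -0.49 without control replicate 2 to 0.025 without control replicate 1. Over 16 tested genes of lymphoid priming, 10 were lower in both pairs and 0 higher, with a median of -0.28. A positive difference was seen for 5: Igll1 (0.68), Ebf1 (0.57), Rag1 (0.42), Ccr9 (0.305) and Rag2 (0.022). Each of them was higher in pair 1 and lower in pair 2. Of all genes tested, 28.8% were lower and 27.8% higher in both pairs. None passed in either list. The lymphoid median was -0.06 in pair 1 and -0.49 in pair 2, and it ranged from -0.92 without knockout replicate 1 to 0.093 without knockout replicate 2 and 0.017 without control replicate 1. Sox4, a transcription factor needed for B cell development, read 833 and 479 in controls and 284 and 246 in knockouts, a difference of -1.16 ± 0.33 (adjusted p = 1.0). Satb1, a chromatin organizer, read 682 and 529 in controls and 429 and 217 in knockouts. Notch1, the receptor for T lineage commitment, read 441 and 224 against 292 and 92.4, where the groups overlap.

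Immunoglobulin transcripts were lower in both pairs, with control array 1 far above the others. Igkv8-30, a kappa variable segment read by a probe set that may bind related segments, was 3316 and 446 in controls and 619 and 141 in knockouts. It was the single gene to fall with pairs as blocks (-1.91; adjusted p = 0.0321; 1.0 without). Igk read 4081 and 333 against 655 and 90.2, and Ighm read 1268 and 261 against 259 and 83.4. The groups overlap for Igkv8-30 and Igk and nearly touch for Ighm. The other probe sets of Ighm vary widely in level and in difference, from -2.97 to 1.60. Pair 1 read higher than pair 2 in both genotypes. The B cell markers as a list had a median of 0.21, running from -0.36 to 0.49 with any 1 array left out. Of 17 tested members, 5 were higher in both pairs and 5 lower, beside 27.8% and 28.8% of all genes tested. Ms4a1 read 4.86 and 1.76 in controls and 49.44 and 4.21 in knockouts, and Cd22 read 18.32 and 10.85 against 31.25 and 32.79. Ms4a1 was above the cutoff of the low-signal filter on 0 control arrays and Cd22 on 1. The other probe set of Ms4a1 did not pass the filter and differed by 0.049. The summed intensity of the list, Igk and Ighm included, was 8397 and 2633 in controls and 5758 and 2086 in knockouts.

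The 10 genes with the smallest p among those lower in both pairs had differences from -2.04 to -0.92, and none passed (adjusted p 0.745 to 1.0). Their order by p was Pcp4l1, Trim26, Camk2a, Sox4, B3gnt5, Sgpl1, Ccl3, Esr1, Kcnip3 and Il1r1. Trim26, a ubiquitin ligase, read 64.4 and 77.0 in controls and 17.4 and 31.9 in knockouts. Sgpl1, the enzyme that degrades sphingosine 1-phosphate, read 129 and 130 against 46.9 and 65.5. Ccl3, a chemokine, was high on control array 1 only, at 284 beside 41.9, 7.51 and 29.1. Il1r1, the interleukin 1 receptor, read 268 and 105 in controls and 72.0 and 42.2 in knockouts.

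Several of the 20 highest-ranked genes belong to no list and did not pass. Ces2g, a carboxylesterase, read 145 and 165 in controls and 453 and 825 in knockouts (1.89 ± 0.40; adjusted p = 0.312). Mtm1, a phosphoinositide phosphatase, had the smallest difference among the 20 at 0.82 ± 0.19 and read 849 and 952 against 1566 and 1730, while a dim probe set of it was lower, at 33.0 and 44.0 against 16.9 and 29.5. Abcb4, a phospholipid transporter, read 52.7 and 60.4 against 228 and 184, and Septin8, a cytoskeletal GTPase, read 125 and 92.0 against 250 and 313. Erbb3, a receptor of the epidermal growth factor receptor family, read 13.9 and 35.2 against 79.1 and 71.5. In each of these both knockouts were above both controls, as they were for 929 of the 8608 genes (10.8%).

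Of the proliferation, apoptosis and interferon lists no member passed. This held for 33 DNA replication genes (median 0.14), 30 mitosis genes (0.21), 20 p53 targets (0.06), 16 apoptosis regulators (-0.12) and 32 interferon response genes (-0.09). With any 1 array left out, the mitosis median ran from -0.06 to 0.50, that of the p53 targets from -0.28 to 0.28 and that of the interferon list from -0.67 to 0.51. The interferon list lay apart by littermates: its summed intensity was 11096 and 10433 on the arrays of pair 1 and 18164 and 16150 on those of pair 2. Perp, a p53 target of cell adhesion, read 20.7 and 30.3 in controls and 60.2 and 410 in knockouts. Cdkn1a, the p53-induced cell cycle inhibitor, read 114 and 143 against 184 and 181, a difference of 0.51 ± 0.32. Its other probe set went the other way, with 217 and 120 in controls and 177 and 93.1 in knockouts (-0.25). Neither gene passed (adjusted p = 1.0). Other p53 targets went down: Ddit4 (-0.76), Btg2 (-1.06) and Sesn1 (-0.64) were lower in both pairs and did not pass either. Of the 20 p53 targets, 7 were higher in both pairs, beside 27.8% of all genes tested, and 5 were lower, beside 28.8%.

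Among 28 chromatin repressors the median was 0.02. Suv39h2, a histone H3 lysine methyltransferase that is prominent in testis, read 96.1 and 120 in controls and 291 and 195 in knockouts, a difference of 1.09 ± 0.41 (adjusted p = 1.0). Among 12 sensors of nucleic acids the median was -0.04, running from -0.51 to 0.049 with any 1 array left out. Of the 12, 2 were higher in both pairs and 4 lower, beside 27.8% and 28.8% of all genes tested. Sting1, the adaptor for cytosolic DNA, read 173 and 218 in controls and 92.0 and 101 in knockouts, a difference of -0.86 ± 0.30. Tlr3, a sensor of double-stranded RNA, read 23.4 and 33.7 against 105 and 38.2 (0.97 ± 0.41; adjusted p = 1.0 for both). Tlr3 was above the filter's cutoff on 2 control arrays. Control probe sets for mouse repeats overlapped between the groups. The B1 probe set read 1883 and 1556 in controls and 1941 and 1608 in knockouts. The B2 probe set read 5047 and 6203 against 5674 and 6292, and a second B2 probe set read 197 and 123 against 296 and 111.

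**Figure D4:**
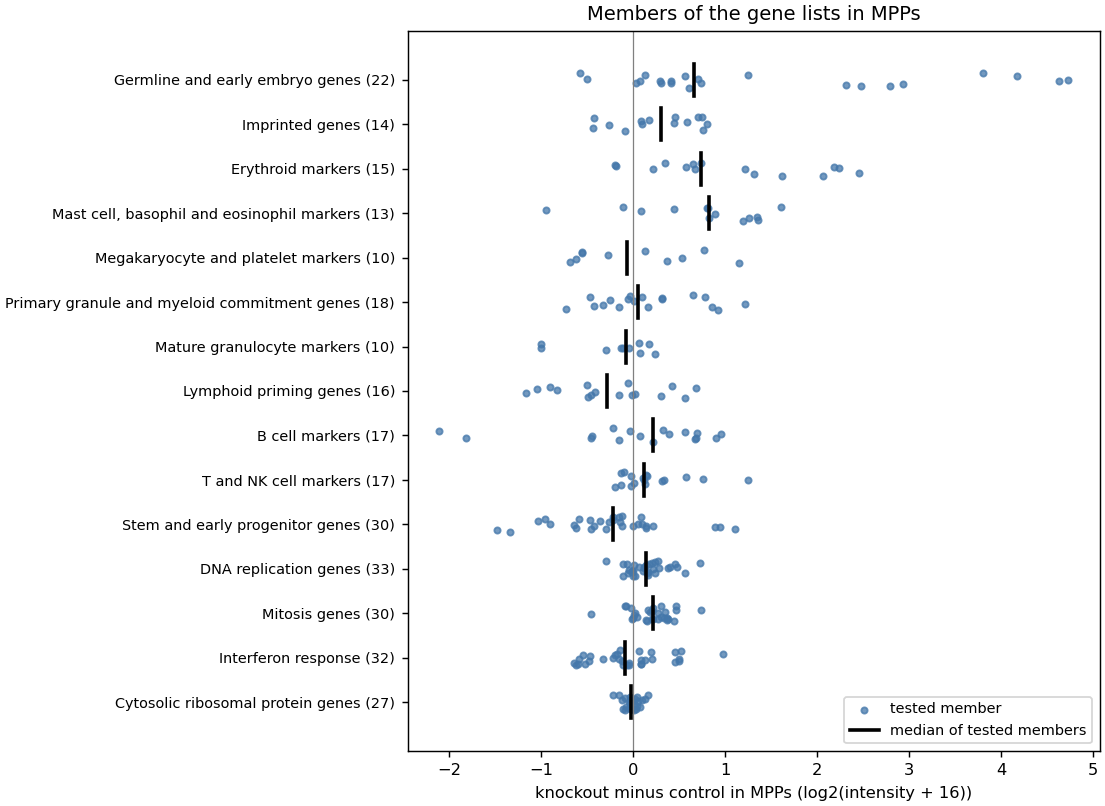
Knockout minus control in MPPs, in log2(intensity + 16), of each tested member of 15 gene lists, with the number tested in parentheses; points are genes and black bars are medians. The germline list has the longest upper tail, erythroid markers and mast cell, basophil and eosinophil markers have medians of 0.74 and 0.83, and lymphoid priming genes have a median of -0.28.

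Markers of other cells that a progenitor sort could hold were compared on the same arrays. Primary granule and myeloid commitment genes had a median of 0.05 over 18 tested members. Mature granulocyte markers were split by pair, with summed intensities of 2427 and 3864 in controls and 660 and 7196 in knockouts. Megakaryocyte and platelet markers had a median of -0.07, T and NK cell markers of 0.11, monocyte and macrophage markers of -0.08, and endothelial and stromal markers of -0.08. The median was 0.16 for MHC class II and dendritic cell markers, and Pdgfrb, a receptor of pericytes and stroma, read 318 and 172 in controls and 63.9 and 86.6 in knockouts. With any 1 array left out these medians changed sign, that of endothelial and stromal markers aside, and that of mature granulocytes moved most, from -1.25 without knockout replicate 2 to 0.90 without knockout replicate 1. No member of these lists passed. The part of such cells in the differences of MPPs was not tested.

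Of the 6 called genes, 4 also passed in myeloid progenitors, where 8 genes rose (0.0929%) and 0 fell (0.0%), and 3 in LT-HSCs, where 4 rose (0.0465%) and 2 fell (0.0232%). Tex19.1, Tex19.2 and Rhox5 passed in all 3 populations. Trap1a passed in myeloid progenitors (4.41 ± 0.62, adjusted p = 0.0142) and not in LT-HSCs (4.22 ± 0.76, adjusted p = 0.0991). The interaction terms of Trap1a were 0.41 ± 1.07 against LT-HSCs and 0.23 ± 0.98 against myeloid progenitors. Rhox5 rose by 3.78 ± 0.54 in LT-HSCs and 2.67 ± 0.44 in myeloid progenitors.

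Mt2 and Col5a1 passed in neither of the other populations. The difference of Mt2 was 0.86 ± 0.37 in LT-HSCs and 0.46 ± 0.30 in myeloid progenitors. That of Col5a1 was 1.66 ± 0.66 and 1.60 ± 0.54. A larger effect in MPPs was itself not called for any gene: 0 of 8608 interaction terms passed against LT-HSCs and 0 against myeloid progenitors (0.0% each way; limma). At an unadjusted p below 0.05, 137 genes had a higher (1.59%) and 123 a lower (1.43%) difference in MPPs than in LT-HSCs. Against myeloid progenitors the counts were 28 (0.325%) and 14 (0.163%). For Mt2 the effect in MPPs exceeded that in myeloid progenitors by 2.00 ± 0.47 (adjusted p = 1.0) and that in LT-HSCs by 1.60 ± 0.52 (adjusted p = 0.999).

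After Mt2, the smallest p of the interactions with myeloid progenitors belonged to Ermap and Car1, and Epor was among the first 6. Ermap differed by 2.42 ± 0.63, Car1 by 2.33 ± 0.66 and Epor by 1.81 ± 0.60 (adjusted p = 1.0 for all). In myeloid progenitors Car1 read 993 to 1528 in controls and 1146 to 1492 in knockouts, a difference of 0.13 ± 0.41. There it was brighter in controls than on any knockout MPP array. The median of the erythroid list was 0.74 in MPPs, 0.44 in LT-HSCs and 0.19 in myeloid progenitors.

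Against LT-HSCs the smallest p belonged to Rhoc, a small GTPase of the cytoskeleton. It read 23.7 and 6.81 in control and 19.18 and 19.62 in knockout MPPs, whereas it rose in LT-HSCs by 3.41 ± 0.41 (adjusted p = 0.00584). The interaction of -3.20 ± 0.59 did not pass (adjusted p = 0.841). Ankrd33b and Lef1, the latter a transcription factor of Wnt signalling in lymphocytes, fell in LT-HSCs by 1.90 and 2.05 (adjusted p = 0.0319 for both) and were dim in MPPs, where Lef1 read 3.91 and 3.14 in controls and 3.80 and 2.89 in knockouts.

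**Figure D5:**
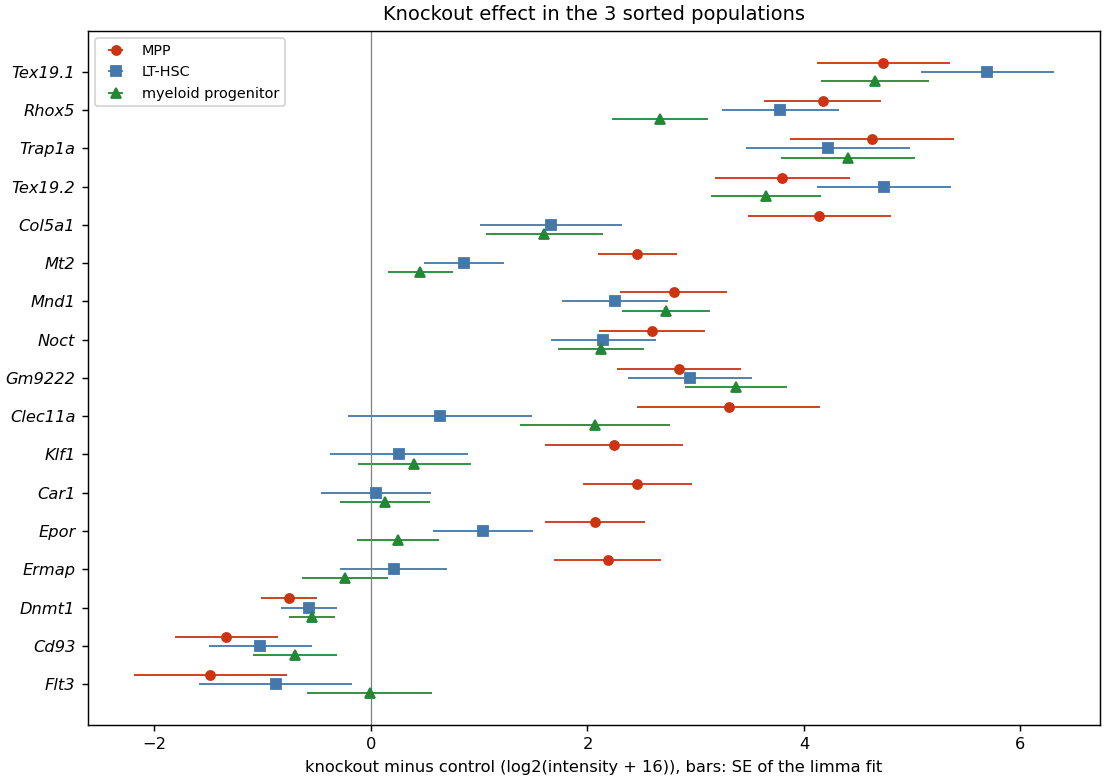
Knockout minus control, in log2(intensity + 16), of 17 genes in MPPs (red circles), LT-HSCs (blue squares) and myeloid progenitors (green triangles); bars are the SE of the limma fit. The germline genes at the top are high in all 3 populations, whereas Mt2, Col5a1, Klf1, Car1, Epor and Ermap have their largest difference in MPPs, which did not pass the interaction test.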

How the data were processed

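RNA of sorted cells was amplified (WT-Ovation Pico), biotin labelled and hybridised to Affymetrix arrays, per the labels. The deposited unit is linear intensity per probe set. The sources used here do not say how the authors corrected, summarised and scaled these intensities, and name no genome build. The table holds 22690 probe sets, 64 of them controls. The platform annotation gave 1 symbol to 20380, several to 691 and none to 1555, and 20351 matched the gene table of GRCm38.p6 with 0 symbols changed.

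Intensities were taken as log2(intensity + 16) and quantile normalized over 14 arrays. Probe sets above the 40th percentile of their array on at least 2 arrays were kept, and the 1 with the highest mean stood for its gene (8608 of 12393 genes). Limma 3.58.1 in R 4.3.3 estimated the 6 group means and let the prior variance follow mean intensity, leaving 8 residual degrees of freedom beside a median of 5.40 from the prior. All p-values are two-sided and, where adjusted, Benjamini-Hochberg corrected across every gene tested, with a threshold of 0.05. The script was tested on simulated data. Tables and figures used Python 3.11.15, numpy 2.4.6, pandas 2.3.3 and matplotlib 3.10.9.

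The labels say that same-numbered arrays came from littermates. In MPPs their deviations from the group means correlated with r = 0.60, and a fit with the 7 pairs as blocks (4 residual degrees of freedom) stands beside the main one where it changes a call. The labels name no scan or extraction batch.

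The comparison, its gene lists and its alternatives were chosen with earlier results of these data known. Genes named are Dnmt1, the 20 with the smallest p among those higher in both pairs, the 10 among those lower in both, every called gene, the listed surface markers, up to 6 per interaction, and up to 4 of each list, taken where both pairs had 1 direction and the unadjusted p was below 0.2; others are said to be chosen after their values were seen. That also holds for Mt1.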

Additional observations from a re-analysis of the deposited data

Results flagged for a closer look

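Probe sets that the annotation gives no single gene symbol stand outside the comparison of genes, and 3 of them had a signal in knockout MPPs far above their controls. In a fit over 15549 probe sets, of which 1351 lack a single symbol, 9 passed and these 3 were among them (limma). Probe set 1433438_x_at read 6.84 and 2.81 in controls and 424 and 975 in knockouts, a difference of 5.02 (adjusted p = 0.000546). Probe set 1456182_x_at read 10.1 and 6.47 against 479 and 1356, a difference of 5.11 (adjusted p = 0.000546). Probe set 1456456_x_at read 9.73 and 3.75 against 332 and 935, a difference of 4.71 (adjusted p = 0.00151). All 3 read below 16 on both MPP control arrays, near the floor of the array. Whether they passed the low-signal filter only through knockout arrays was not tested. The rise was not particular to MPPs. In the order given, the differences were 4.74, 5.05 and 4.47 in LT-HSCs and 5.14, 5.32 and 4.80 in myeloid progenitors. All 3 carry the suffix of probe sets that are not specific to 1 transcript, and their sequences were not used here. No MPP group has enough arrays for a test of single outlying arrays.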

How the results depend on the processing

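The count of 6 genes that rose stayed at 6, with the same genes, under median centring, a pseudocount of 1 and a filter over MPP arrays. It was 12 with littermate pairs as replicate block, 3 with no filter, 3 with every probe set, 2 with no mean-variance trend, 1 (Rhox5) with a pseudocount of 64 and 0 with MPP arrays only, where 98 genes were higher and 75 lower at an unadjusted p below 0.05. Leaving out 1 MPP array gave 0 to 2; the 2 without knockout replicate 2 were Dgke and Pbx4, neither among the 6. The count that fell was 1 with the block and 0 otherwise, and each interaction count went from 0 to at most 1 when 1 array was left out. The block changed no call beyond the 7 genes named with it. Dnmt1 ranged from -1.06 to -0.46 when 1 array was left out and kept its direction in every setting tried.

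Of the named genes that did not pass, these changed sign when 1 MPP array was left out: Hp ranged from -0.37 to 2.80, Elane from -0.36 to 2.21, Btg2 from -2.14 to 0.011, Cma1 from -0.19 to 2.71, Cd48 from -0.080 to 0.36, Il7r from -1.21 to 0.21, Rhoc from -0.089 to 0.50, Lef1 from -0.028 to 0.0090, Fos from -4.13 to 1.67, Jun from -2.99 to 1.56, Hba-a2 from -0.33 to 0.078 and Hbb-b2 from -0.094 to 0.71. Lef1 was also 0.015 under median centring. The cause was not tested. Over all settings of the named genes, 1305 values kept direction and side of the threshold, 43 no longer passed, 7 passed anew and 17 changed sign. Dim signal limits the germline genes, whose control values lie near the floor.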

Other observations

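Several other probe sets without a single symbol moved in the same direction without passing. Of these, 1436362_x_at had the smallest p. It read 515 and 407 in controls and 2090 and 2965 in knockouts, a difference of 2.40 ± 0.41 (limma, adjusted p = 0.0722). Probe set 1420357_s_at, shared by Xlr3a, Xlr3b and Xlr3c, X-linked genes of lymphoid and germ cells, was higher by 1.95 ± 0.40 (adjusted p = 0.254), with 1.68 in pair 1 and 2.23 in pair 2. Among the 1351 probe sets without a single symbol, 43 were higher and 16 lower at an unadjusted p below 0.05. In the separate fit of the 8608 genes, 122 were higher (1.42%) and 107 lower (1.24%). That fit holds 1 probe set per gene, whereas the 1351 were not reduced to 1 per transcript, so these counts are not a like comparison.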
